A study of Mus musculus with 574 samples.

Results

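The genes described here encode 9 surface proteins that hold blood progenitors in the bone marrow or guide them through vessel walls. They are the chemokine receptor Cxcr4, the integrin chains Itga4, Itgb1, Itgb7, Itgal and Itgb2, the selectin ligand Selplg, the hyaluronan receptor Cd44 and the integrin counter-receptor Vcam1. They were chosen by name, as 9 of the 46078 gene rows of every count table, and each symbol matched 1 gene identifier. The study sequenced single granulocyte/macrophage progenitors (GMPs) from the marrow of C57Bl/6 wild-type mice aged 6 to 12 weeks, which were given 5-fluorouracil (5-FU), a drug that kills dividing cells and empties the marrow, as 1 dose of 150 mg/kg. Cells were sorted by surface markers (no lineage markers, c-Kit present, Sca-1 absent, CD34 and Fc gamma receptor present), 1 to a well, on days 0, 8, 10, 12 and 14. All 6 sets, 1 for each day and 2 for day 8, carry the 5-FU label, day 0 included. The protocol also names PBS-treated mice, and both crushed and flushed bones, without tying a set to either, and it does not say how many mice gave each set.

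Progenitors stay in the marrow partly because CXCR4 on their surface binds the chemokine CXCL12 made by stromal cells, and partly because integrins bind ligands on stroma and endothelium. The integrin α4 chain pairs with β1 to form VLA-4, which binds VCAM-1 and fibronectin, or with β7 to form LPAM-1 (α4β7), which also binds the gut addressin MAdCAM-1. The αL and β2 chains form LFA-1, which binds ICAMs. PSGL-1, the product of Selplg, is the main ligand of P-selectin, and CD44 binds hyaluronan and can carry selectin-binding glycans.

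Promoters (250 bases before to 50 after the gene start) were in the RefSeq table of GRCm38.p6 for 5 of the 9 genes. The 3 chains that share the α4 pairings are shown because, with all kept cells, only the β7 chain was called between days. Capitals mark, on either strand, the ETS core GGAAGT, the RUNX core TGTGGT and the SP1 box GGGCGG. The Itgb7 promoter lies at chr15:102231886-102232185 on the minus strand, that of Itga4 at chr2:79255176-79255475 on the plus strand and that of Itgb1 at chr8:128685404-128685703 on the plus strand.
Itgb7: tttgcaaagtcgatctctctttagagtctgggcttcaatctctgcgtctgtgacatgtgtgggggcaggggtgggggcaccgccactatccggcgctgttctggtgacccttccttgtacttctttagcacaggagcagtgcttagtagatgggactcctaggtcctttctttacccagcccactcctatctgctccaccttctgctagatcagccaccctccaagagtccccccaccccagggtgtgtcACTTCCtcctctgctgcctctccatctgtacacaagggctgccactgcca
Itga4: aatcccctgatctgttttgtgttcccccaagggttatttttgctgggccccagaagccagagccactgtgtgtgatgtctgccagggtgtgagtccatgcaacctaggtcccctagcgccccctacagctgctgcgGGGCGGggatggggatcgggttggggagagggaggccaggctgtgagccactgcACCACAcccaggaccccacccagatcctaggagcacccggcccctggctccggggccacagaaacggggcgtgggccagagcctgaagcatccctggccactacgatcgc
Itgb1: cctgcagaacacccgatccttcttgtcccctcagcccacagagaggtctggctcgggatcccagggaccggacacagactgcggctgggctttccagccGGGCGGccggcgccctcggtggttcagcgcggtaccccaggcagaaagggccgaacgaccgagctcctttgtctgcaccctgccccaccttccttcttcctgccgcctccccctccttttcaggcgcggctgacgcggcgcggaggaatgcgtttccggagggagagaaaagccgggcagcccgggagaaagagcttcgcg
Itgb7 held 1 ETS core and no match to the other motifs searched, which included the GATA core AGATAA and the E-box CACGTG. Itga4 held 1 RUNX core and 1 SP1 box, and Itgb1 held 1 SP1 box. Among 32851 promoters of the same table, 23.8% held the ETS core, 16.8% the RUNX core and 35.7% the SP1 box. These are matches of letters in a window, not binding sites.

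Of 574 cells in the labels, 573 had a matching column and 500 passed the filter of at least 50000 reads in genes and 1000 genes, with 92 cells at day 0, 90 and 93 at day 8, and 93, 85 and 47 at days 10, 12 and 14. Median reads per kept cell ran from 79451 on day 14 to 289938 in the first day 8 set, and summed reads from 4849678 to 30691997. Xist was read in 88.04% and 91.8% of kept cells on days 0 and 12 and in 0% to 4.30% elsewhere, so these 2 sets are mostly female cells and the others mostly male. Genes of the sort markers were read in every set, with Cd34 at 353 to 583 CPM, the usual scale of reads relative to library size, here with TMM factors. Ly6a, the gene of Sca-1, was at 3.84 to 12.98. The Fc gamma receptor gene Fcgr3 was at 106 and 117 CPM in the day 8 sets and at 276 to 363 elsewhere, and Fcgr2b at 103 to 146 in all sets. Kit was also lowest in the day 8 sets, at 52.04 and 61.6 CPM against 77.2 to 102. Every day but day 8 is 1 set, so a day cannot be told apart from the sex, bone preparation or plate of its set. Reads of the kept cells were summed within each set, where fewer expressing cells and less RNA per cell cannot be told apart, and the shares of cells given beside the sums bear on this.

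All 9 genes were read in every set, and no kept cell had reads of all 9 after thinning to 50000 reads (0 of 500 cells, median 5 genes, range 0 to 8). Per kilobase of merged exon, Selplg had the highest level in all 6 sets, at 34.2 to 70.04 CPM per kilobase. Itgb1 (24.4 to 32.5) and Cd44 (14.9 to 24.8) came next, and their ranges overlapped, with Cd44 the higher of the pair on day 12. Itgb2 (9.96 to 14.9) stood above its partner Itgal (6.91 to 10.5) in each set, although the ranges over sets overlapped. Itgb7 ranged from 3.38 on day 0 to 18.4 on day 14, and overlapped both LFA-1 chains. Cxcr4 lay at 2.44 to 8.64 and Itga4 at 2.77 to 3.74 CPM per kilobase. Vcam1 was lowest in all 6 sets, at 0.455 to 2.76. The Itga4 value depends on the length used, since its merged exons span 13978 bases and its longest coding transcript 9767. For Selplg these lengths are 4272 and 1855 bases, and for Vcam1 8870 and 3469. For Itgal they are 6569 and 5222, and for Itgb2 3052 and 2970. With the coding lengths Itgb2 would not stand above Itgal in every set, nor would Vcam1 be lowest in every set.

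**Figure D1:**
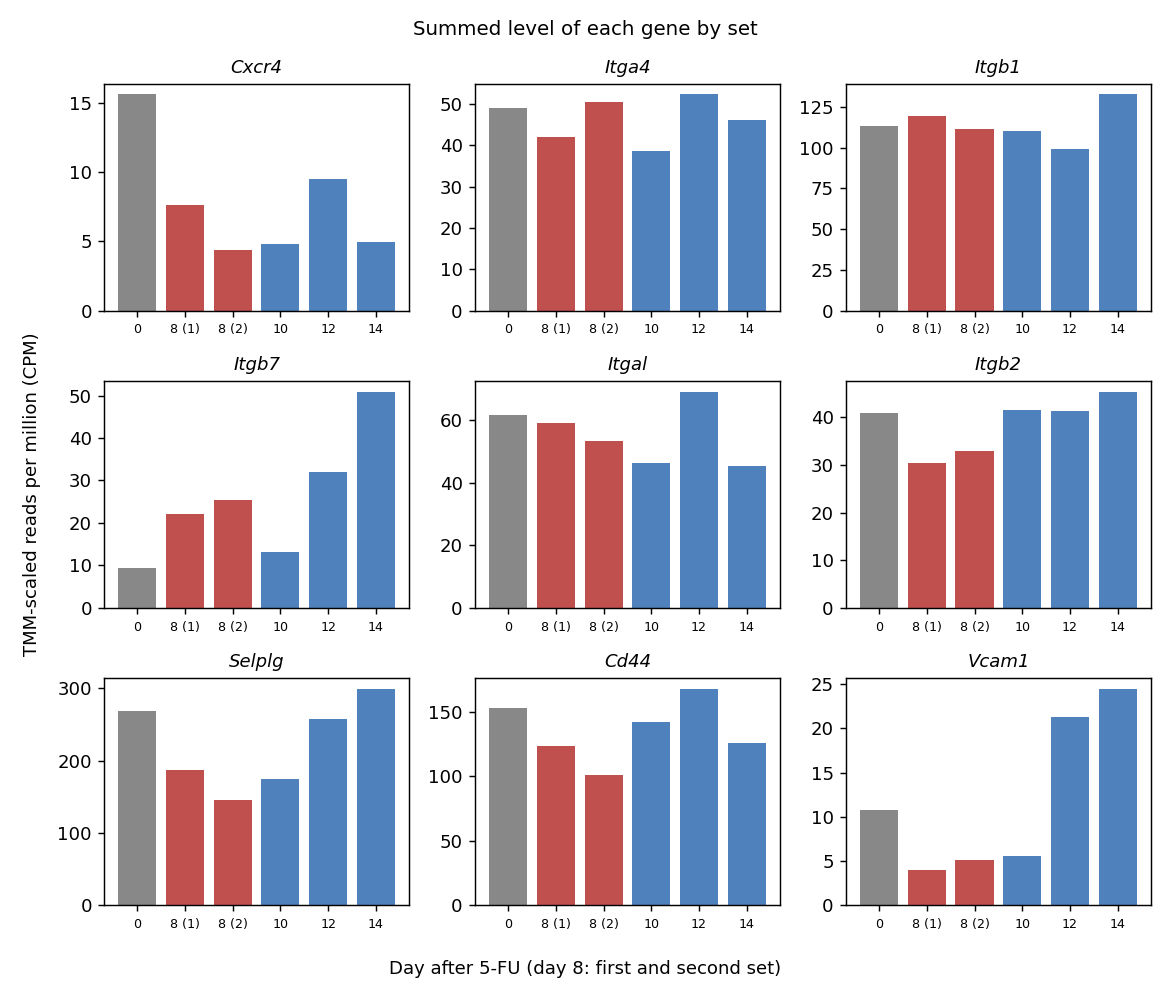
Summed level of each gene in each set, in TMM-scaled CPM (vertical axes, from 0 and scaled for each gene), by day after 5-FU; grey is day 0, red the 2 day 8 sets and blue days 10, 12 and 14. Each bar is 1 set with no error. Itgb7 was lowest on day 0 (9.37) and highest on day 14 (50.9), while Itga4 stayed between 38.7 and 52.3.

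Across days, Itgb7 was the only member called higher than on day 0, on days 8, 12 and 14. Against day 8, Vcam1 was called higher on days 12 and 14 and Selplg on day 14. None of these calls held when every cell was thinned to 50000 reads before summing. On day 14, 1 cell held 153 of the 204 Itgb7 reads. Without the cell with most reads in each set, the Itgb7 calls on days 12 and 14 and the Selplg call were lost. The day 8 call of Itgb7 was lost with DESeq2's Wald test (adjusted p = 0.0518). Cxcr4 had lower values on every day after day 0, none of which passed the test. With all kept cells, the α4, β1, αL and β2 chains and Cd44 were not called between days.

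The test was edgeR's quasi-likelihood F test on the summed counts, with Benjamini-Hochberg adjustment over 15145 genes and a threshold of 0.05. Its spread comes from the 2 day 8 sets alone, which nothing in the labels ties to separate mice, so its p-values measure the spread between those sets. Against day 0, 1 of the 9 members was called at day 8 (5.63% of all genes tested were), 0 at day 10 (1.45%), 1 at day 12 (0.172%) and 1 at day 14 (1.58%). At an unadjusted p under 0.05 the members numbered 4, 2, 1 and 3. Against day 8, 0 of 9 were called on day 10 (0.792% of all genes), 1 on day 12 (2.5%) and 3 on day 14 (14.2%). Their median log2 difference from day 0 was -0.38 on day 8, beside 0.0095 over all genes, and -0.34, 0.095 and 0.15 on days 10, 12 and 14. Each cell was also thinned to 50000 reads before summing. These include reads of Slc34a2, a median of 9.68% of a cell's gene reads in the first day 8 set and 31.2% on day 14. The depth left for other genes was thus not equal. On thinned cells edgeR called 0 of 13213 genes in all 7 day comparisons, with 473 to 2359 at an unadjusted p under 0.05. No day call of the 9 genes held there (adjusted p 0.277 to 0.871). The directions were kept. On thinned cells Itgb7 stood 1.08, 1.57 and 1.44 above day 0 at days 8, 12 and 14, Vcam1 stood 1.85 and 2.19 above day 8 at days 12 and 14, and Selplg 0.80 above day 8 at day 14 (log2), beside 1.34, 1.77, 2.44, 2.23, 2.43 and 0.84 without thinning.

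**Figure D2:**
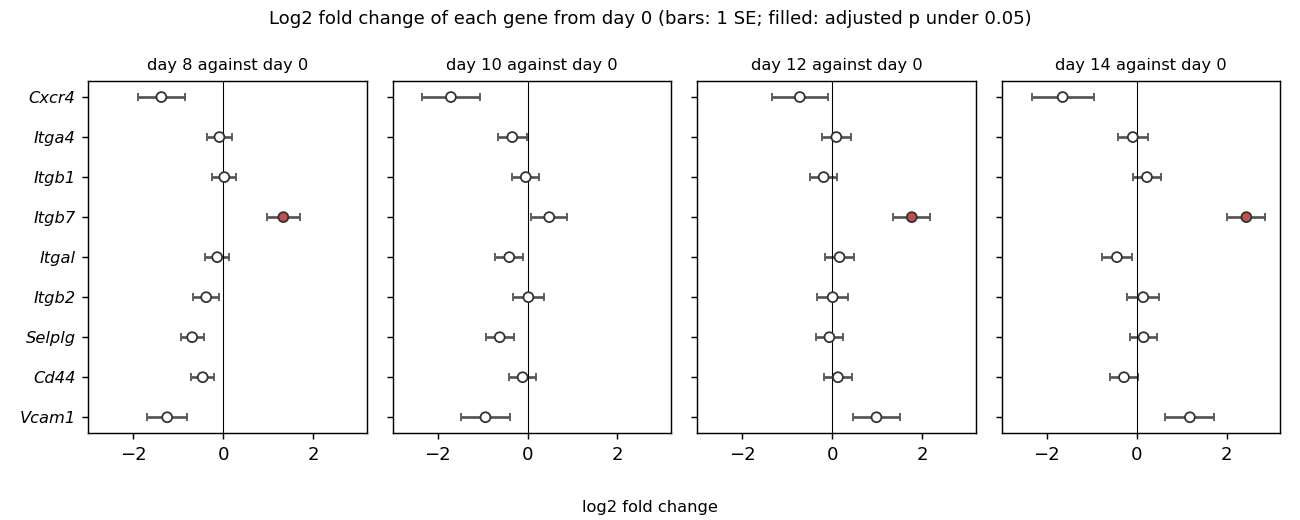
Log2 fold change of each gene from day 0 (horizontal axes) on days 8, 10, 12 and 14, with bars of 1 standard error from the edgeR fit; filled points passed an adjusted p of 0.05. Itgb7 is the filled point on days 8 (1.34), 12 (1.77) and 14 (2.44), and Cxcr4 lies left of 0 on every day.

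Cxcr4, the CXCL12 receptor, measured 15.6 CPM at day 0, 7.64 and 4.41 at day 8 (first and second set), then 4.78, 9.49 and 4.99 at days 10, 12 and 14. Day 0 was the highest set and day 12 the next. The log2 difference from day 0 was -1.37 ± 0.52 (SE) at day 8 (edgeR adjusted p = 0.113), -1.71 ± 0.64 at day 10 (0.214), -0.72 ± 0.62 at day 12 (0.897) and -1.65 ± 0.69 at day 14 (0.257). The share of thinned cells with a Cxcr4 read was 28.3% on day 0 (exact 95% binomial interval 19.4% to 38.6%), 20% and 15.1% at day 8, then 15.1%, 23.5% and 10.6% at days 10, 12 and 14 (day 14 interval 3.55% to 23.1%). These intervals, here and below, cover counting error only, and all 6 overlapped. Days 0 and 12 had the highest sums and the highest shares, and the day 14 values rest on 20 reads. Days 0 and 12 are also the 2 mostly female sets, so day and sex cannot be told apart in this order. The day 0 set also had the highest summed Malat1 and Neat1, nuclear RNAs used as a sign of RNA quality, at 548 CPM against 214 to 411 elsewhere, and their part in the Cxcr4 values was not tested.

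Itga4 and Itgb1, the chains of VLA-4, were not called between days with all kept cells. Itga4 ranged from 38.7 CPM on day 10 to 52.3 on day 12, and the second day 8 set (50.6) was above day 0 (48.97) while the first (42.1) was below it. Its log2 differences from day 0 were -0.34 to 0.095, with standard errors of 0.28 to 0.34. Itgb1 ranged from 99.4 CPM on day 12 to 133 on day 14, with differences from day 0 of -0.19 to 0.23. With only cells of at least 200000 reads and 2000 genes, of which day 14 had 4, Itgb1 was called lower on day 14, at -1.21 against day 0 (edgeR adjusted p = 0.0210) and -0.97 against day 8 (0.0253). Itga4 was read in 51.1% to 75.3% of thinned cells and Itgb1 in 61.7% to 87.1%, both lowest on day 14. There the thinned reads of both went with genes read per cell (Spearman's rho 0.47 and 0.54 over 47 cells). The part of genes read in these shares was not tested. Itga4 shares a stretch of the genome with Cerkl on the opposite strand, and the library type does not keep the strand.

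Itgb7, the β7 chain that pairs with α4 in LPAM-1, measured 9.37 CPM at day 0, 22.2 and 25.3 at day 8, then 13.1, 32.03 and 50.9 at days 10, 12 and 14. Both day 8 sets were above day 0, and the day 10 set lay between day 0 and day 8. The rise from day 0 was 1.34 ± 0.37 (log2, SE) on day 8 (edgeR adjusted p = 0.0190), 1.77 ± 0.41 on day 12 (0.0444) and 2.44 ± 0.42 on day 14 (0.000291), while day 10 gave 0.48 ± 0.40 (0.668). DESeq2's Wald test gave an adjusted p of 0.0518 for day 8 and 0.361 for day 12. The day 12 call was also lost with DESeq2 size factors (0.0733), with no cell filter (0.0527), with cells of at least 200000 reads (0.0684) and without Slc34a2, the gene with a large part of all reads (0.0743).

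The day 14 rise of Itgb7 was carried by 1 cell. A single monocyte-leaning cell held 153 of the 204 Itgb7 reads of that set, and the next held 21 and 15. Without the cell with most Itgb7 reads in each set, day 14 against day 0 was 0.99 (edgeR adjusted p = 0.367), and day 14 against day 8 went from 1.10 (0.0213) to -0.50 (0.472). On thinned cells the latter difference was 0.36 (0.465). On the same terms day 8 against day 0 was 1.49 (0.0248) and day 12 against day 0 1.88 (0.0757). Shares of thinned cells with an Itgb7 read give another order than the sums. They were 14.1% at day 0 (7.74% to 22.95%), 30% (20.8% to 40.6%) and 29.03% (20.1% to 39.4%) at day 8, then 20.4%, 22.4% and 10.6% at days 10, 12 and 14 (day 14 interval 3.55% to 23.1%). Day 14 thus had the highest sum and the lowest share. Itgb7 reads were uneven between cells in general, since 358 of 500 cells had none and 71 had 10 or more.

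The LFA-1 chains Itgal and Itgb2 were not called between any days. Itgal ranged from 45.4 CPM on day 14 to 69.1 on day 12, with 61.6 at day 0 and 59.2 and 53.4 at day 8. Itgb2 was lowest in the day 8 sets, at 30.4 and 32.9 CPM, and at 41.04 to 45.4 on the other days. Its difference between days 8 and 0 was -0.38 ± 0.29 (log2, SE, edgeR adjusted p = 0.530). Itgal was read in 42.6% to 65.6% of thinned cells and Itgb2 in 38.3% to 55.9%, each lowest on day 14. Their thinned reads ran with genes read per cell there (Spearman's rho 0.23 and 0.28 over 47 cells), and the part of this was not tested.

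Selplg measured 269 CPM at day 0, 188 and 146 at day 8, then 175, 258 and 299 at days 10, 12 and 14. The day 8 and day 10 sets were the 3 lowest. Day 8 against day 0 gave -0.69 ± 0.26 (log2, SE), which missed the threshold (edgeR adjusted p = 0.112). From day 8 to day 14 Selplg rose by 0.84 ± 0.26 (0.0226), a call lost without the cell with most Selplg reads in each set (0.72, adjusted p = 0.0823), without the filter on low genes (0.70, 0.151) and with cells of at least 200000 reads (0.64, 0.0766). It was read in 91.8% to 96.8% of thinned cells on days 0 to 12 and in 80.9% on day 14 (66.7% to 90.9%). The set with the highest sum thus again had the lowest share. On day 14 the thinned Selplg reads of a cell went with its number of genes read (Spearman's rho 0.55 over 47 cells). Other sets gave 0.055 to 0.35, and the part of genes read in this share was not tested.

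Cd44 ranged from 101 CPM in the second day 8 set to 168 on day 12, with 154 on day 0. Day 8 against day 0 was -0.45 ± 0.26 (log2, SE, edgeR adjusted p = 0.359), and no other day comparison of Cd44 passed. The share of thinned cells with a Cd44 read lay between 76.6% and 85.6% in all sets.

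Vcam1, which encodes the VLA-4 ligand and is best known on endothelium, stroma and macrophages of the marrow, measured 10.8 CPM at day 0, 4.03 and 5.06 at day 8, then 5.61, 21.3 and 24.5 at days 10, 12 and 14. Days 12 and 14 were above every earlier set. Against day 8, Vcam1 rose by 2.23 ± 0.44 (log2, SE) on day 12 (edgeR adjusted p = 0.000895) and by 2.43 ± 0.46 on day 14 (0.000130). Against day 0 the differences were -1.24 ± 0.45 at day 8 (0.0942), 0.99 ± 0.53 at day 12 (0.690) and 1.18 ± 0.55 at day 14 (0.319), and none passed. On day 12, 3 cells held 141, 90 and 32 of the 366 Vcam1 reads, and all 5 cells with most reads leaned to the granulocyte lists. Without the cell with most Vcam1 reads in each set, the rise from day 8 was 1.90 on day 12 (edgeR adjusted p = 0.00997) and 2.48 on day 14 (9.56e-05). With only cells of at least 200000 reads, of which day 14 had 4, the day 14 rise was 1.04 and was not called (0.400). The share of thinned cells with a Vcam1 read was 31.5% at day 0, 15.6% and 23.7% at day 8, then 27.96%, 30.6% (21.05% to 41.5%) and 53.2% (38.1% to 67.9%) at days 10, 12 and 14.

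Most Vcam1 detections were of 1 or 2 reads. Before thinning, 246 of 500 cells had 1 or 2 Vcam1 reads, 56 had 3 to 9 and 16 had 10 or more. Vcam1 was read in 63.6% of cells before thinning. The 11 macrophage genes listed for comparison were read in 0.2% (Marco) to 41.6% (Mrc1), the 6 megakaryocyte and platelet genes in 0.2% (Ppbp) to 46% (Vwf), and the 9 stroma and endothelium genes in 3% (Cdh5) to 97.8% (Emcn), with the collagen Col1a2 at 58.8% and Col1a1 at 6.6%. Of the genes in these lists, Emcn alone had a higher share than Vcam1. In each of the 6 sets the thinned Vcam1 reads of a cell ran against its number of genes read (Spearman's rho -0.10 to -0.38 over 47 to 93 cells), and day 14 cells had the fewest genes (median 5258). The macrophage list had 6 to 11 of 11 genes with reads and 17.7 to 41.9 CPM in sum, lowest on day 14, and C1qa, C1qb and C1qc were all at 0 on days 0 (37.1 CPM in sum) and 14. A C1q read was found in 2 of the 142 thinned cells with Vcam1 and in 7 of the 358 without. The stroma and endothelium list had 8 or 9 of 9 genes with reads and 24.2 to 46.5 CPM up to day 12 but 87.6 on day 14. Of these 9 genes, 3 or 4 were above 1 CPM up to day 12 and 6 on day 14. With Emcn read in 97.8% of cells, the sum is no measure of stromal cells. The part of genes read and of this list in the Vcam1 values was not tested. Vcam1 also overlaps the gene Gm43109 on the opposite strand, and Cd44 overlaps Gm23731.

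**Figure D3:**
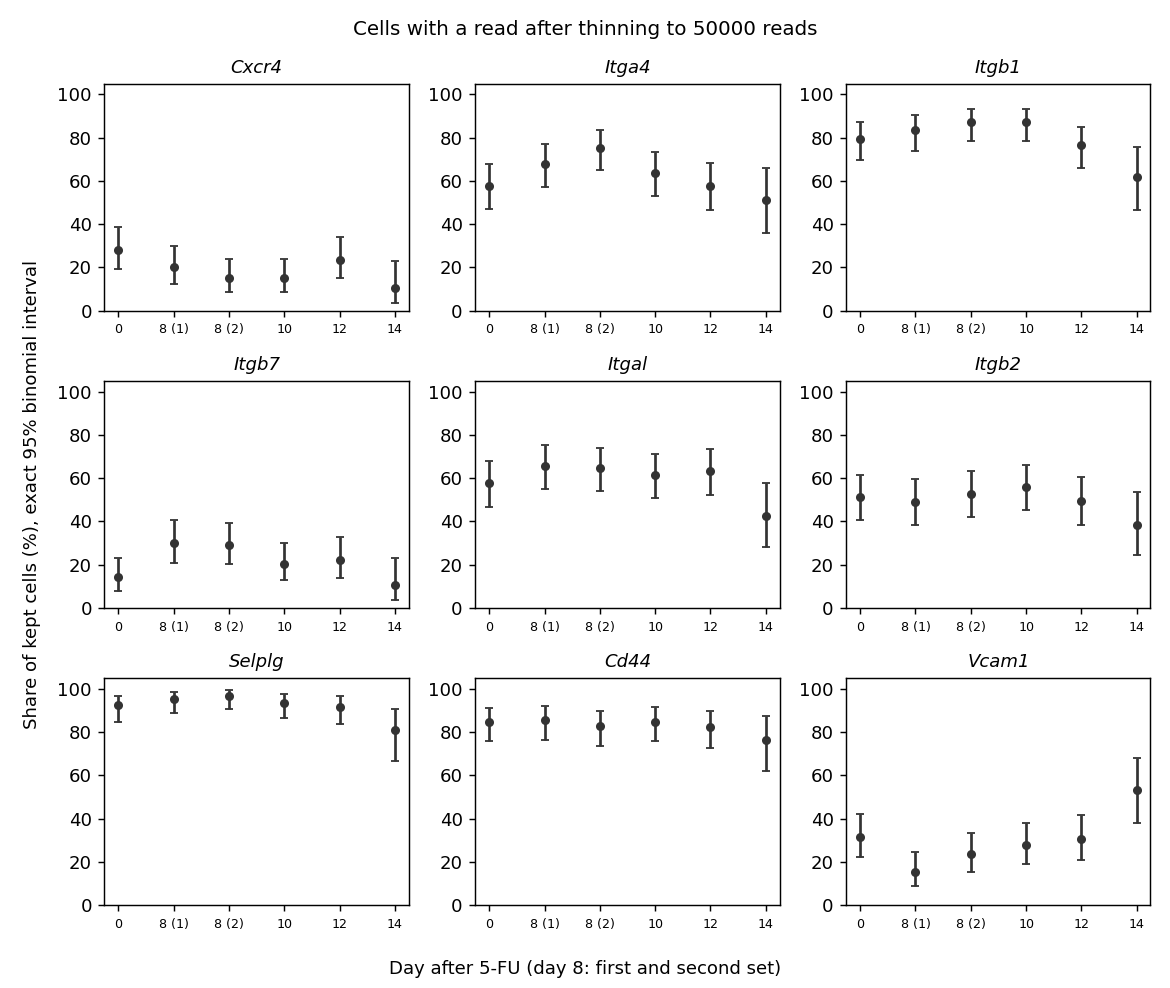
Share of kept cells with at least 1 read of each gene after thinning every cell to 50000 reads (vertical axes, percent), by set; bars are exact 95% binomial intervals, which cover counting error only. Selplg is near the top in every set, and Itgb7 is higher in the 2 day 8 sets (30% and 29.03%) than on day 0 (14.1%).

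**Figure D4:**
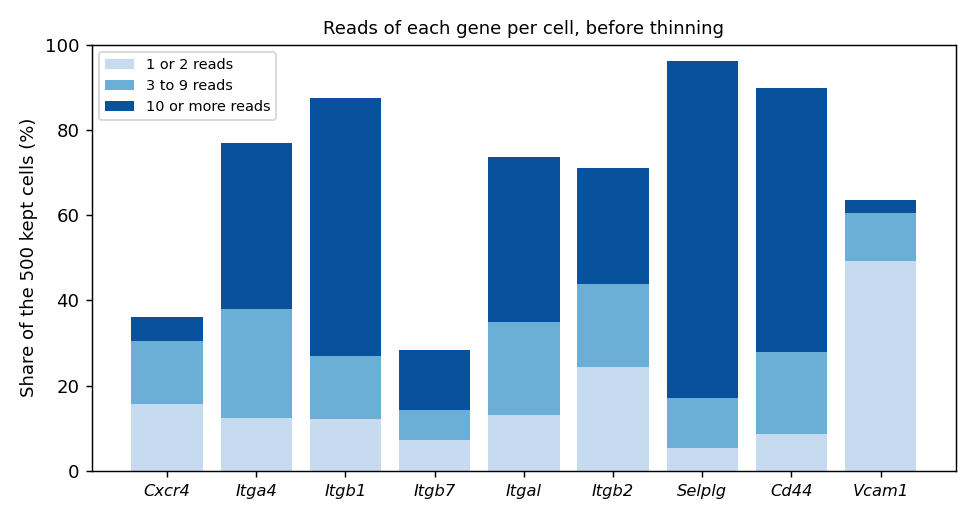
Share of the 500 kept cells (vertical axis, percent) with 1 or 2, 3 to 9, and 10 or more reads of each gene before thinning, stacked. Selplg has 10 or more reads in 395 cells, while Vcam1 has them in 16 and its column is mostly 1 or 2 reads.

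Cells were then compared by the lineage their other genes leaned to. A cell was put in a class when its mean standardised score over a marker list was at least 0.25 and at least 0.1 above its next list. The lists were monocyte (such as Irf8 and Csf1r), granulocyte (such as Elane and Gfi1), stem and multipotent (such as Hlf and Mecom), and erythroid, mast and basophil (such as Gata1 and Cpa3). None holds any of the 9 genes. The classes are ranges of scores, not cell types. They took 137, 102, 59 and 42 cells in that order, 160 cells had no lean, and 7, 12, 7 and 0 class members lay within 0.05 of the cut. On day 0, 46.7% of cells leaned to monocytes and 25% to granulocytes. In the day 8 sets 14.4% and 7.53% leaned to monocytes and 22.2% and 25.8% to stem cells.

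Selplg and Itgb7 were lower in granulocyte-leaning than in monocyte-leaning cells. Selplg stood at 364, 419, 174, 309, 394 and 401 CPM in the monocyte-leaning cells of day 0, the 2 day 8 sets and days 10, 12 and 14, and at 138, 179, 73.8, 119, 122 and 174 in the granulocyte-leaning cells. The monocyte-leaning class was higher in 6 of 6 sets, although the ranges over sets overlapped. How many of all tested genes kept their direction in every set was not counted, here or below. With the set as a block, the difference was -1.36 ± 0.20 (log2, SE, edgeR adjusted p = 0.000873), and it stayed past the threshold without any single set. Selplg was read in 98.5% of thinned monocyte-leaning cells (94.8% to 99.8%) and 87.3% of granulocyte-leaning ones (79.2% to 93.04%). Of the 9 members, 2 were called in this comparison, beside 2.13% of 12594 genes, and 3 had an unadjusted p under 0.05.

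Itgb7 stood at 16.02, 52.1, 43.3, 18.6, 44.7 and 88.5 CPM in monocyte-leaning cells, in the same order of sets, and at 3.56, 3.49, 0.268, 9.63, 10.1 and 3.07 in granulocyte-leaning cells. Every monocyte-leaning value was above every granulocyte-leaning one, and the share of all tested genes separated in this way was not counted. In the second day 8 set and on day 14, 1 cell held 73.1% and 85% of the Itgb7 reads of monocyte-leaning cells. In the other sets that share was 24.7% to 38.8%. The difference was -2.97 ± 0.58 (log2, SE, edgeR adjusted p = 0.0105). It was -2.73 without the first day 8 set (0.0608) and -2.70 without day 14 (0.0504), both just above the threshold, and -2.90 with at least 10 cells per class and set (0.0878). Without the cell with most Itgb7 reads in each set and class it was -4.79 (0.00804). Granulocyte-leaning cells held only 1 to 69 Itgb7 reads per set, with 59.4% to 100% of them in that cell. Few reads were thus left on that side, and the larger value cannot be read as a stronger difference. Of the thinned cells, 29.9% of monocyte-leaning ones (22.4% to 38.3%) and 7.84% of granulocyte-leaning ones (3.45% to 14.9%) had an Itgb7 read. Of the 71 cells with 10 or more Itgb7 reads, 27 leaned to monocytes, 16 to stem cells, 11 to the erythroid, mast and basophil list and 4 to granulocytes, and 13 had no lean.

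Vcam1 went the other way. It stood at 16.2, 6.98, 6.98, 11.3, 66.2 and 51.1 CPM in granulocyte-leaning cells and at 5.87, 3.08, 4.65, 4.42, 2.71 and 9.83 in monocyte-leaning cells. The granulocyte-leaning value was higher in 6 of 6 sets, by the most on day 12. The difference of 1.85 ± 0.55 (log2, SE) missed the threshold in edgeR (adjusted p = 0.113) and passed it in DESeq2 (0.00784) and in edgeR on thinned cells (2.34, 0.0104). Vcam1 was read in 39.2% of thinned granulocyte-leaning cells (29.7% to 49.4%) and 20.4% of monocyte-leaning ones (14.03% to 28.2%). Of the 16 cells with 10 or more Vcam1 reads, 12 leaned to granulocytes and 0 to monocytes, 2 leaned to stem cells and 1 to the erythroid, mast and basophil list, and 1 had no lean.

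**Figure D5:**
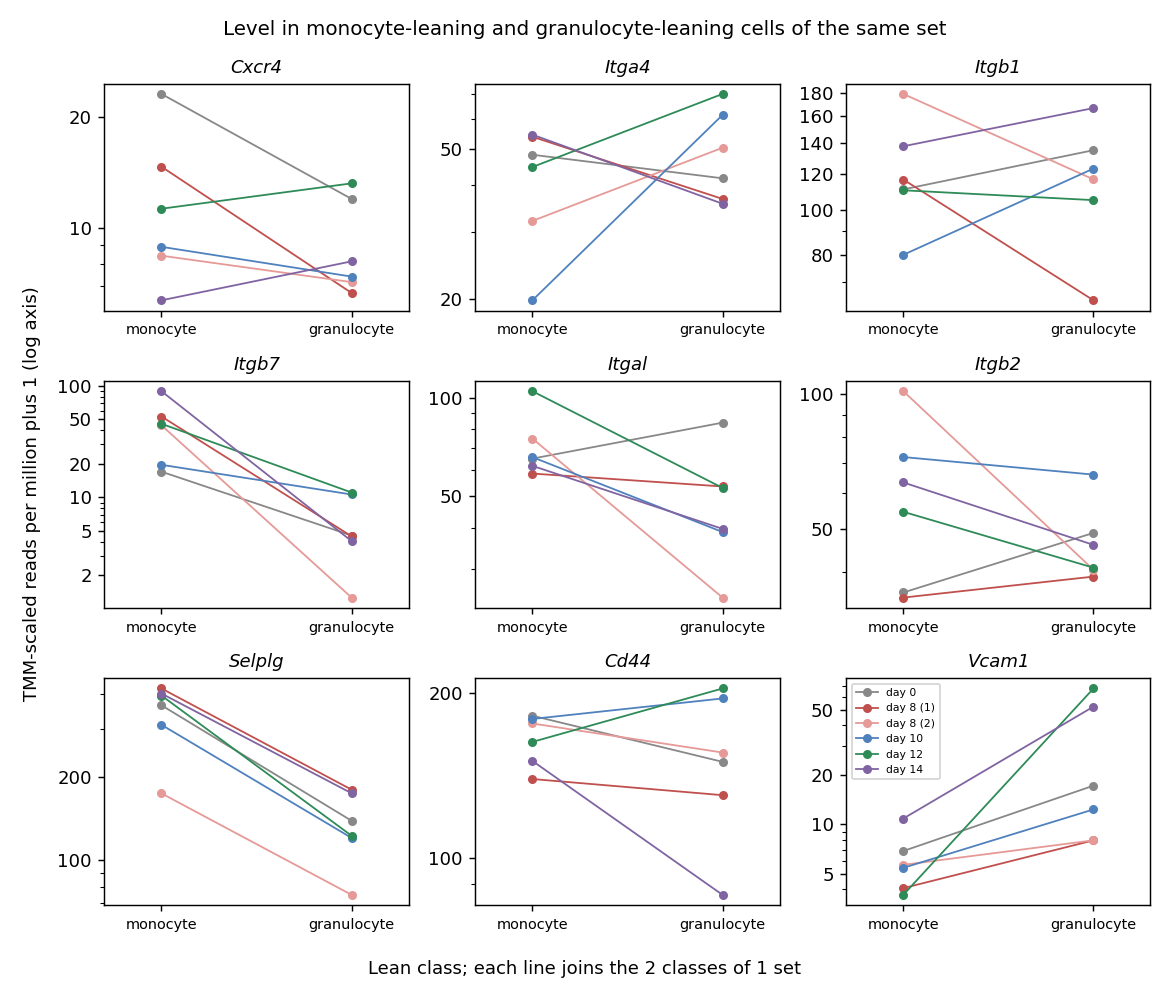
Level of each gene in monocyte-leaning and granulocyte-leaning cells of the same set (TMM-scaled CPM plus 1, log axes scaled for each gene); each line joins the 2 classes of 1 set. The lines for Selplg and Itgb7 fall from monocyte to granulocyte in all 6 sets and those for Vcam1 climb in all 6, while the lines of Itga4 cross, with 3 sets each way.

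None of the other 6 members was called between these classes. The monocyte-leaning value was higher in 5 of 6 sets for Itgal (-0.60 ± 0.33, log2, SE, edgeR adjusted p = 0.554), in 4 for each of Cxcr4 (-0.32 ± 0.52, 0.918), Itgb2 (-0.31 ± 0.34, 0.853) and Cd44 (-0.13 ± 0.26, 0.936), and in 3 for Itga4 and Itgb1. For Itga4 the difference was 0.29 ± 0.30 (0.835) and for Itgb1 -0.033 ± 0.23 (0.989). These standard errors leave room for differences of moderate size. Shares of cells by class are pooled over sets, which gave 7 to 43 monocyte-leaning cells each. Their intervals treat cells as independent and cover counting error only, so they are no test between classes. Itgal was read in 75.2% of thinned monocyte-leaning cells (67.1% to 82.2%) and 56.9% of granulocyte-leaning ones (46.7% to 66.6%). Itga4 went the other way, at 53.3% (44.6% to 61.9%) and 71.6% (61.8% to 80.1%). Cxcr4 was read in 29.2% of thinned monocyte-leaning cells (21.7% to 37.6%), 19.6% of granulocyte-leaning cells (12.4% to 28.6%) and 10.2% of stem-leaning cells (3.82% to 20.8%). Day 0 gave 43 of the 137 monocyte-leaning cells and 1 of the 59 stem-leaning cells, so class and day are mixed in these shares.

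Stem-leaning cells reached 5 cells in 4 sets and the erythroid, mast and basophil-leaning cells in 3, and both were compared with the mean of the monocyte and granulocyte classes. In the stem comparison 0 of 9 members were called by edgeR (1.37% of all genes were), with 3 at an unadjusted p under 0.05. Itgb2 was nearest, at 24.4, 32.2, 12.1 and 3.79 CPM in stem-leaning cells of the 2 day 8 sets and days 10 and 14, and its difference was -1.48 ± 0.40 (log2, SE, edgeR adjusted p = 0.0917, and 0.00575 in DESeq2's Wald test). Itgb7 was at 36.998, 43.9, 25.9 and 79.7 CPM in the same cells, 1.52 ± 0.55 above the mean of the other classes (0.263, and 0.0489 on thinned cells). The day 14 value of Itgb7 comes from 1 of 5 cells, and that of Itgb2 is 1 read in these 5 cells. The day 10 value of Itgb2 rests on 21 reads in 8 cells.

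In the erythroid, mast and basophil-leaning cells 0 of 9 members were called (4.6% of all genes were), with 3 at an unadjusted p under 0.05. Itgb7 gave 1.57 ± 0.62 (log2, SE, edgeR adjusted p = 0.169) and Itga4 0.86 ± 0.34 (0.176). On thinned cells both passed, at 2.45 (0.00184) and 1.10 (0.0391). The day 8 sets gave 11 and 16 of the 42 cells of this class, beside 13 and 7 of the 137 monocyte-leaning cells. Pooled shares of classes therefore also carry the day. Itgb7 was read in 35.6% of thinned stem-leaning cells. In the erythroid, mast and basophil class Itga4 was read in 83.3% of thinned cells (68.6% to 93.03%) and Itgb7 in 38.1% (23.6% to 54.4%). Each was the highest share of any class. Cd44 had its lowest share there, 57.1% (40.96% to 72.3%), against 91.2% in monocyte-leaning cells (85.2% to 95.4%), with a difference of -0.75 ± 0.34 (log2, SE, edgeR adjusted p = 0.228), which was -1.11 and called without the cell with most Cd44 reads in each set and class (0.0374).

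Between days 8 and 0 within 1 class, no member was called by edgeR. Within monocyte-leaning cells this was 0 of 9 (0.0288% of 13870 genes were called), with 1 at an unadjusted p under 0.05, and within granulocyte-leaning cells 0 of 9 (0.138% of 13015 genes) with 0. Itgb7 differed by 1.59 ± 0.74 (log2, SE, adjusted p = 1) in monocyte-leaning cells, close to the 1.34 of all cells, and by -0.93 ± 1.62 (0.901) in granulocyte-leaning cells. Cxcr4 differed by -1.03 ± 1.17 and -0.87 ± 1.18 in the monocyte and granulocyte classes, and Selplg by -0.28 ± 0.44 and -0.11 ± 0.47, nearer to 0 than the -0.69 of all cells. The second day 8 set had 7 monocyte-leaning cells, of which 1 held 73.1% of the Itgb7 reads.

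Over all sets together, partner chains were read in the same cells about as often as the product of their shares. That product was taken within each set and averaged over sets, weighted by their cells. Itga4 and Itgb1 were both read in 52.4% of thinned cells, beside a product of 51.5%. For Itga4 and Itgb7 these values were 15.2% and 14.3%, and for Itgal and Itgb2 33.2% and 30.7%. Single sets differed for the LFA-1 chains, with 27.7% of the 47 day 14 cells beside a product of 16.3%, 35.9% beside 29.4% on day 0 and 32.3% beside 34.3% on day 10, and these gaps were not tested. Over the 500 thinned cells, with set means removed, the highest correlation between any 2 of the 8 members read in at least 20% of cells was 0.20 (Spearman, Itgb1 and Cd44), and that between Selplg and Vcam1 was -0.20. Among 8584 genes read as often, those most like Selplg were Ly6e (0.54), Coro1a (0.51) and Ucp2 (0.48). S100a10 was most like Itgb7 (0.33), and Pkm (0.30) and Hsp90ab1 (0.30) most like Cd44. No gene reached 0.3 with Itga4, Itgb1, Itgal, Itgb2 or Vcam1. All these values share the cells' libraries and depth and are a description.

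Of 83 other adhesion and trafficking genes, 68 were tested between days. Between days 8 and 0, 9 were higher and 5 lower, beside 5.63% called of all genes, with a median log2 difference of 0.12 beside 0.0095 for all genes. Among integrin chains, Itga2b, the αIIb chain of megakaryocytes and early progenitors, rose by 1.52 ± 0.44 (log2, SE, edgeR adjusted p = 0.0285) and Itga6, the laminin-binding α6 chain, by 1.09 ± 0.33 (0.0387), while the collagen-binding Itga1 fell by 3.40 ± 0.77 on the log2 scale (0.00319). Among chemokine receptors and their regulators, Ccr1 rose by 3.74 ± 0.75 (0.000757). The fractalkine receptor Cx3cr1 fell by 1.87 ± 0.45 (0.00542), and Dpp4, a protease that cleaves CXCL12, fell by 1.51 ± 0.41 (0.0174). The LFA-1 ligand Icam1 rose by 1.42 ± 0.38 (0.0153), the tetraspanin Cd151 by 1.23 ± 0.32 (0.0130) and the membrane linker Ezr by 1.06 ± 0.28 (0.0145), and the CD6 ligand Alcam fell by 2.41 ± 0.45 (0.000308). None of 15 integrin activation genes such as talin and kindlin-3, and none of 9 selectin and glycosylation genes, was called. DESeq2's Wald test called 5 of the 14, which were Ccr1, Ezr, Alcam, Cx3cr1 and Rgs2 (-0.94, adjusted p = 0.0337), the last named after its values were seen.

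On later days fewer of these genes, and fewer of all genes, were called against day 0 than on day 8. They numbered 2 of 68 at day 10, 0 at day 12 and 1 at day 14, beside 1.45%, 0.172% and 1.58% of all genes. On day 10 Ccr1 was higher (3.71 ± 0.78, log2, SE, edgeR adjusted p = 0.00429) and Cx3cr1 lower (-2.08 ± 0.56, 0.0373). The gene called on day 14 was Icam4, named after its values were seen, with 3.42 CPM at day 0 and no read at day 14. On days 10, 12 and 14 against day 8, 0, 6 and 14 of the 68 were called, beside 0.792%, 2.5% and 14.2% of all genes. From day 8 to day 14, Ezr fell by 1.28 ± 0.29 on the log2 scale (0.00173) and Icam1 by 1.16 ± 0.40 (0.0419), and Alcam rose by 2.07 ± 0.48 (0.00193). Alcam measured 23.01 CPM at day 0, 2.72 and 5.96 at day 8, then 7.95, 14.3 and 18.2 at days 10, 12 and 14. With cells of at least 200000 reads its day 14 difference from day 8 was -2.09 and not called (edgeR adjusted p = 0.284).

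Between the lean classes, 66 of the 83 genes were tested. In granulocyte-leaning against monocyte-leaning cells 3 were higher and 4 lower, beside 2.13% called of all genes. The monocyte chemokine receptor Ccr2 was lower by 2.78 ± 0.29 on the log2 scale (-2.78, edgeR adjusted p = 8.89e-05), at a mean of 32.2 CPM against 213 over 6 sets. Emb, which encodes the adhesion protein embigin, gave -1.69 ± 0.19 (0.000120), at 507 against 1597 CPM. Fut7, a fucosyltransferase that builds the selectin-binding glycans of PSGL-1, gave -1.68 ± 0.40 (0.0374), at 16.8 against 55.5 CPM, the same direction as Selplg. Itga2b (3.96 ± 0.76, 0.00890), Itga6 (1.81 ± 0.38, 0.0181) and the tetraspanin Cd9 (1.54 ± 0.32, 0.0143) were higher in granulocyte-leaning cells. Mmp8, a neutrophil collagenase, was lower (-3.19 ± 0.69, 0.0208). Itga2b was uneven over sets, at 0 to 79.7 CPM in granulocyte-leaning cells (mean 17.6) and 0 to 2.46 in monocyte-leaning ones. In the stem comparison Itga2b, Cd9 (1.57 ± 0.32, 0.0196), Cd48 (0.81 ± 0.18, 0.0369) and Esam (0.0228) were called, all higher (4 of 66, beside 1.37% of all genes), of which Esam was named after its values were seen, and in the erythroid, mast and basophil comparison 10 were higher and 2 lower (4.6% of all genes were called). Itga2b was higher in both, at 3.997 ± 0.76 (0.0132) and 7.55 ± 0.81 (4.63e-05).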

How the data were processed

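Read counts per gene and cell were deposited by the authors as whole numbers, not normalized, made with GSNAP and HTSeq 0.5.3p3 on mm10, per the submitters' processing notes. Smart-seq2 and Nextera XT libraries, per the labels' protocols, carry no molecular identifiers, so counts include PCR copies, and do not keep the strand. Spike-ins (92 rows) and the 5 rows that name no gene (median 87.1% to 93.7% of a cell's reads by set) were left out, as was 1 column matching no label. Symbols came from GENCODE vM21.

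Counts of kept cells were summed per set and tested with edgeR 4.0.16 (R 4.3.3; TMM, quasi-likelihood F test) with a mean per day, 1 residual degree of freedom and a prior of 51.5, so single sets are assumed to vary like the day 8 sets. Tested genes passed filterByExpr and were read in 10% or more of the cells of some set. Lean classes with at least 5 cells in a set were summed and tested with the set as a block, leaving out the genes that define them. Thinning drew 50000 reads per cell without replacement. Fits were tested on simulated data. Members, lists, named genes and tests were chosen with earlier results of these data known. All members were named, with up to 2 called rises and 2 falls of at least 10 CPM per role list and likeness of at least 0.3. No doublet caller was run. Alternatives used DESeq2 1.42.0 and other filters.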

Additional observations from a re-analysis of the deposited data

Results flagged for a closer look

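Itgb7 and Itgb1 were picked out by sign alone, whatever the size. Both day 8 sets lay above day 0 in monocyte-leaning cells and below it in granulocyte-leaning cells. The difference between the classes was not tested. For Itgb7 the log2 level of the first and second day 8 sets minus day 0 was 1.64 and 1.38 in monocyte-leaning cells, and -0.023 and -1.85 in granulocyte-leaning cells. For Itgb1 it was 0.071 and 0.69 in monocyte-leaning cells, and -1.08 and -0.21 in granulocyte-leaning cells. The Itgb7 values of granulocyte-leaning cells rest on 11 reads at day 0 and on 11 and 1 at day 8. In each of these sets 81.8% to 100% of them came from 1 cell, and -0.023 is close to no change. The day 8 sets share 1 day 0 set, and their smallest class held 7 cells. By Dixon's test no set stood apart from the other 5 in the granulocyte-leaning minus monocyte-leaning log2 level of any of the 9 genes. That test flags about 1 in 20 such groups by chance. The summed levels of whole sets were not tested in this way.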

How the results depend on the processing

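Of 84 tested alternatives on called differences of the 9 genes, 59 kept direction and call, 24 lost the call and 1 reversed. Leaving out 1 day 8 set leaves no test, and the 10 such values kept direction. Of 832 tested alternatives on differences that were not called, 762 kept direction and were not called, 62 changed sign and 10 passed the threshold, 2 of them with a changed sign (Itgb1 on day 14). Of 98 values with no test, 13 changed sign and 5 others moved by more than the spread. The call of Selplg between granulocyte-leaning and monocyte-leaning cells held under all 12 alternatives run. Cell thinning and 1 residual degree of freedom limit the day calls, and without the cell with most reads those of Itgb7 on days 12 and 14 and of Selplg were lost. Where a call was lost the cause was not tested. No paired analysis was possible because sets of different days share no number in the labels. With no thinning, 32 of 54 shares of cells moved out of their intervals. Alternatives without Slc34a2 (a median of 9.68% to 31.2% of a cell's reads), without day 14 or without the cell with most reads were chosen after seeing the data.

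The count of members called between days 8 and 0 went from 1 to 0 with DESeq2's Wald test or thinned cells and to 2 with no cell filter (Vcam1 -1.35). Days 12 and 0 went from 1 to 0 with DESeq2 size factors, the Wald test, no cell filter, cells of at least 200000 reads, thinned cells or without Slc34a2. Days 14 and 0 went from 1 to 2 with cells of at least 200000 reads (4 cells on day 14) and to 0 with thinned cells. Thinning gave 0 for day 12 (main 1) and day 14 (main 3) against day 8, and no gene filter gave 1 for the latter. Granulocyte against monocyte went from 2 to 1 with at least 10 cells per class, and to between 1 and 2 without single sets. The stem comparison went from 0 to 1 with thinned cells or the Wald test, and the erythroid, mast and basophil comparison from 0 to 2 with thinned cells. Of the other adhesion genes, thinning called 0 in all day comparisons. Day 8 against 0 went from 14 to 5 with the Wald test. Day 10 against 0 went from 2 to 1 with size factors, the Wald test, cells of at least 200000 reads or without Slc34a2, and to 5 with no day 14. Day 14 against 0 went from 1 to 0 with size factors, the Wald test or without Slc34a2, to 2 with no gene or no cell filter and to 5 with cells of at least 200000 reads. Against day 8, day 10 went from 0 to 2 with no day 14, day 12 from 6 to 2 with the Wald test or cells of at least 200000 reads, and day 14 from 14 to 6 with the Wald test. The Wald test called 13 (main 7), 10 (main 4) and 23 (main 12) in the granulocyte, stem and erythroid comparisons, at least 10 cells called 2 in the stem comparison, and leaving out single sets gave 3 to 6, 0 to 6 and 7 to 16.

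Of 63 tested differences of the 9 genes that changed sign, 60 were within 1 standard error of 0 in the main test. With thinned cells these were Itga4 (0.070) and Itgb1 (-0.041) for day 8 against 0, Itgb1 (0.0015) and Itgb2 (-0.26) for day 10 against 0, Itga4 (-0.12), Itgb2 (-0.10) and Cd44 (-0.031) for day 12 against 0, Itgb1 (0.043) for day 10 against 8 and Itga4 (-0.19) for day 12 against 8. Between classes thinning turned Itga4 (-0.20) and Selplg (0.025) in the stem comparison, Cxcr4 (0.34) in the erythroid one, Itga4 (0.24) and Itgal (-0.42) within monocyte-leaning cells and Itga4 (-0.017) within granulocyte-leaning cells. With cells of at least 200000 reads these were Itgb1 (-0.24) for day 8 against 0, Itga4 (-0.12) for day 12 against 0, Itga4 (0.46), Itgb1 (-1.21), Selplg (-0.096) and Vcam1 (-0.53) for day 14 against 0, and Cxcr4 (1.01), Itga4 (0.83) and Itgb1 (-0.97) for day 14 against 8. Outside the 9 genes, the called Alcam turned there (-2.09). No gene filter turned Itgb1 (0.050) for day 10 against 0 and no cell filter Cxcr4 (0.14) for day 14 against 8. Size factors and the Wald test turned Itga4 (0.0073 and 0.0072) for day 14 against 8 and Selplg (0.041 and 0.040) in the stem comparison, and the Wald test Cxcr4 (0.043) in the erythroid one. Without the cell with most reads, Itgb1 (0.0013) and Itgb2 (-0.10) turned for day 10 against 0, Itgb2 for days 12 (-0.15) and 14 (-0.14) against 0, the called Itgb7 (-0.50) for day 14 against 8, Itga4 (-0.36), Selplg (0.10) and Vcam1 (-0.17) in the stem comparison and Vcam1 (-0.25) in the erythroid one. With at least 10 cells, Itgb1 (0.27) and Cd44 (0.038) turned between granulocyte and monocyte, Itga4 (-0.20), Itgb1 (0.049) and Itgal (0.69) in the stem comparison, and Cxcr4 (0.38), Itgb2 (0.18) and Selplg (-0.070) in the erythroid one. A gap of 0.3 turned Itgb1 (0.067) and Selplg (0.070) for stem, Cxcr4 (0.17) for erythroid and Itgal (-0.16) within monocyte-leaning cells. Leaving out single sets gave -0.016 to 0.50 for Itga4 and -0.17 to 0.094 for Itgb1 between granulocyte and monocyte. In the stem comparison it gave -0.075 to 0.30 for Itga4, -0.26 to 0.24 for Selplg and -0.12 to 0.45 for Vcam1. In the erythroid comparison it gave -1.03 to 0.55 for Cxcr4, -0.14 to 0.31 for Itgb1, -0.26 to 0.43 for Selplg and -0.43 to 0.76 for Vcam1.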
